A study of Mus musculus with 12 samples.

Results

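The interleukin-1 (IL-1) family genes described here were 8 genes chosen by symbol from the 55335 genes of each expression table: the ligands Il1a, Il1b and Il18, the antagonists Il1rn and Il18bp, and the receptor genes Il1r1, Il1r2 and Il1rap. Total RNA was sequenced from bone marrow-derived dendritic cells (BMDCs) of C57BL/6 mice, which are bone marrow cells grown for 6 days with the cytokine GM-CSF, in 4 groups of 3 libraries. WT cells carried CreER, a tamoxifen-activated Cre recombinase expressed from the Rosa26 locus, and WTL cells were WT cells given lipopolysaccharide (LPS), a bacterial cell wall component, at 100 ng/ml for 3 h. KO cells had the genotype CreER;CTCF fl/fl, in which Cre removes the floxed alleles of Ctcf, the gene of a DNA-binding protein that shapes chromatin loops, and KOL cells were KO cells given the same LPS dose for the same time. All groups share CreER, and 4-OH tamoxifen was given when the cultures were started. Whether the WT cultures also received it is not clear from the methods, and if they did not, an effect of the drug and of the deletion cannot be told apart. The mice were young adults of both sexes and the cells were selected for CD11c, per the study's methods, which also call the replicates biological. No source used here ties a library to a mouse or a culture, so p-values measure the spread between these libraries.

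IL-1 alpha and IL-1 beta both signal through IL-1 receptor type 1 (Il1r1) once it pairs with the accessory protein encoded by Il1rap. The receptor antagonist (Il1rn) occupies the same receptor without signalling, the decoy receptor (Il1r2) binds ligand but lacks a signalling domain, and IL-18 binding protein (Il18bp) sequesters IL-18. IL-1 beta and IL-18 are made as precursors that caspase-1 cleaves within inflammasomes, so transcript levels are not amounts of active cytokine. Dendritic cells are known to induce IL-1 transcripts after LPS is sensed by TLR4 and to pass IL-1 signals to T cells.

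The transcript of Ctcf, the targeted gene, was lower in both CTCF-deficient groups. Its normalized counts (expected counts scaled to a common library size) were 1051, 987 and 975 in the WT libraries, 569.7, 562 and 516 in KO, 886, 817 and 745 in WTL, and 563, 530.0 and 526 in KOL. No KO library reached a WT library and no KOL library a WTL library. The log2 fold change was -0.87 ± 0.08 (SE, edgeR quasi-likelihood test, adjusted p = 3.9e-07) for KO against WT and -0.59 ± 0.08 (adjusted p = 2.4e-05) for KOL against WTL. Transcript counted to Ctcf thus remained in KO cells, but counts per gene do not tell intact from recombined transcript. The paper reports efficient depletion of CTCF in mRNA and protein, and binding that was lost or severely reduced.

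Libraries held 12769773 to 16586334 expected counts, and the LPS libraries varied more among themselves than the unstimulated ones. The chi-square per degree of freedom between replicates was 28.3 to 77.7 in WTL and 8.07 to 28.5 in KOL, against 1.66 to 4.45 in WT and KO. WTL replicate 2 held 6.98% ribosomal RNA counts, and no other library more than 1.63%. The dendritic cell markers Itgax, Cd74 and H2-Ab1 were at 206 TPM (a length-corrected abundance unit) or more in every library. Summed TPM of the 7 dendritic cell markers was 7315 to 7812 in WT and 5912 to 6185 in KO. With LPS it was 7498 to 10682 in WTL and 8469.5 to 12958 in KOL. Mean Itgax was higher in KO than in WT (605.5 and 366 TPM). Means were lower in KO for H2-Ab1 (1743 to 923), Cd74 (5132 to 4252), Ccr7 (319 to 195), Ciita (45.8 to 35.9) and Zbtb46 (15.5 to 13.0). From WTL to KOL, means rose for Cd74 (6156 to 7647), Ccr7 (602 to 695), Itgax (224 to 251) and Zbtb46 (24.2 to 31.3). They fell for H2-Ab1 (2102 to 1869), Ciita (49.5 to 27.5) and Flt3 (3.09 to 2.03). The summed markers of T, B, NK, mast and stromal cells each stayed at or below 8.62 TPM. Summed macrophage markers were at 461 to 501 TPM in WT, 178 to 249 in WTL, 572 to 596 in KO and 166 to 228 in KOL. Csf1r made up most of the sum in WT and KO, with means of 351 and 511 TPM. C1qa was also higher in KO than in WT (7.78 to 17.5), and in KOL than in WTL (6.13 to 21.4). Adgre1 (99.2 to 50.4), Mertk (13.8 to 5.72) and Fcgr1 (4.31 to 1.35) were lower in KO than in WT. Between WTL and KOL, means fell for Csf1r (105 to 92.7), Adgre1 (71.9 to 66.6), Mertk (9.57 to 4.4) and Fcgr1 (12.4 to 2.46). The part of such cells in the results was not tested. Flt3, also on the dendritic cell list, was low, at 0.63 to 4.1 TPM, with means of 3.65 in WT and 0.84 in KO. Because these are bulk samples, fewer cells of a type and less RNA per cell cannot be told apart.

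On the length-corrected scale, Il1rn was the most abundant of the 8 transcripts in WT cells, and Il1b was first in the other groups. Mean levels in WT were 277.0 ± 14.3 TPM (SD, n = 3) for Il1rn, 144 ± 4.95 for Il1b, 85.5 ± 1.07 for Il1r2, 66.8 ± 4.42 for Il1a, 19.0 ± 1.22 for Il18, 7.27 ± 0.33 for Il1rap, 5.26 ± 0.49 for Il18bp and 1.01 ± 0.14 for Il1r1. No neighbours in this order shared a range. In WTL cells Il1b stood at 2686 ± 450.2 TPM, which placed it 52nd among all genes, followed by Il1rn at 1492 ± 257 TPM and Il1a at 844 ± 289 TPM. In KOL cells the libraries of Il1b, at 2298 ± 215 TPM, and of Il1rn, at 1729.6 ± 321 TPM, overlapped. Il1r1, the signalling receptor, was last in every group, at 0.71 to 1.47 TPM over the 12 libraries.

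LPS raised all 8 genes in WT cells. Against this stands a background of 30.0% of the 14008 tested genes higher and 30.2% lower in WTL than in WT at an adjusted p under 0.05, with no fold cutoff. The median log2 fold change over the 8 genes was 1.99, and over all genes tested it was -0.02. Between unstimulated groups the picture was mixed: 2 genes were higher in KO than in WT (Il1b, Il18bp), 4 were lower (Il1rn, Il18, Il1r2, Il1rap) and 2 did not pass the test (Il1a, Il1r1), beside 22.2% of all genes higher and 22.4% lower. Under LPS, 3 genes were lower in KOL than in WTL (Il18, Il1r1, Il1rap) and 0 were higher in edgeR, where 1 was higher at an unadjusted p under 0.05. DESeq2 and limma on TPM also called 0 higher, and over all genes 21.4% were higher and 23.3% lower. In CTCF-deficient cells LPS raised 7 of the 8, all except Il1r1, beside 33.6% of all genes higher and 33.9% lower.

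**Figure D1:**
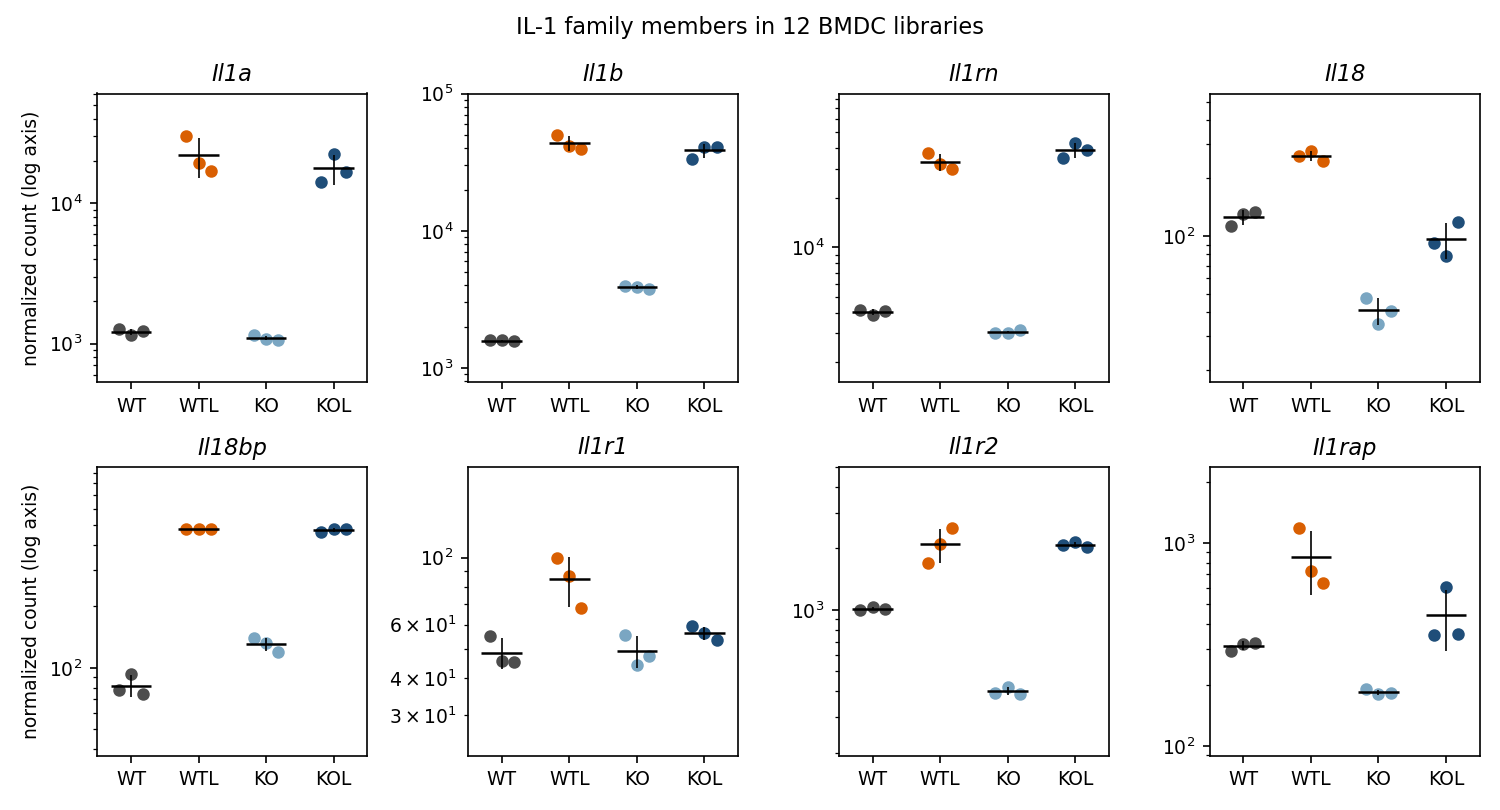
Normalized counts of the 8 IL-1 family genes (log axis) in the 4 groups, where each point is a library, the horizontal line the mean and the vertical line the SD of 3 libraries. The WTL and KOL points of Il1b, Il18bp and Il1r2 lie side by side although their WT and KO points do not, while Il18 and Il1rap sit lower in the CTCF-deficient groups with and without LPS.

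The ligands Il1a and Il1b are neighbours on mouse chromosome 2 and had the largest responses to LPS among the 8 genes in WT cells. Il1a lies at chr2:129299610-129309972 and Il1b at chr2:129364570-129371139 (mm10, both on the minus strand), with 54.6 kb between them. The bases before their starts are given because these genes rose together, with the bases before Il18, the ligand that rose least, for contrast. Each line gives the 250 bases before the RefSeq start (GRCm38.p6), 5′ to 3′ on the gene's strand, with capitals on matches to TATAAA on that strand, or to the AP-1 motif TGANTCA or the C/EBP-type motif TTNNGNAA on either strand.
Il1a, chr2:129309973-129310222, minus strand: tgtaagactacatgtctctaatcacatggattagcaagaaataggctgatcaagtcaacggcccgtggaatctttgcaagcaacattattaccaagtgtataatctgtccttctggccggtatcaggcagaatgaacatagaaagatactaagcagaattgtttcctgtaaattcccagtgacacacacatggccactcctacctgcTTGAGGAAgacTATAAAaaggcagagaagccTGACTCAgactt
Il1b, chr2:129371140-129371389, minus strand: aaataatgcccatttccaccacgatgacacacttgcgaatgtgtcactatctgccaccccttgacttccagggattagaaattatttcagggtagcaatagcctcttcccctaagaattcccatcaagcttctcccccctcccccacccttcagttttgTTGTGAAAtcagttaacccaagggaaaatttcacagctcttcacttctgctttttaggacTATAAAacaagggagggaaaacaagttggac
Il18, chr9:50554450-50554699, plus strand: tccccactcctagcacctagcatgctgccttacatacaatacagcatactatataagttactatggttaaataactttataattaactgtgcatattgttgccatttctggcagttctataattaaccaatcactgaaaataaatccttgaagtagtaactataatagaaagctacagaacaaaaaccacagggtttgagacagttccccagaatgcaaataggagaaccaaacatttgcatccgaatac

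TATAAA began 32 bases before the start of Il1a and 31 bases before that of Il1b. Among the 8 genes, all of which matched at least 1 RefSeq start, it was found for these 2 alone, and 7.59% of all 32851 promoter windows of this length hold it. TTNNGNAA was found for 5 of the 8 genes and in 36.8% of all windows, and TGANTCA for Il1a and Il1rn, against 6.75% of all windows. A 10-base kappaB motif was found in 1 window of Il1r1 and in 7.25% of all windows, and an interferon-stimulated response element motif, present in 2.98% of all windows, in no window of the 8 genes. The Il18 window held no match to any of the 5 motifs. These are matches of letters within 250 bases and say nothing about occupancy. A gene was counted if any of its windows matched, and the 8 genes had 11 windows, so gene counts and window shares differ in basis.

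Il1b, the gene of the secreted pyrogenic cytokine, was the member that most clearly separated the unstimulated groups in the upward direction. Normalized counts were 1587, 1588 and 1574 in WT and 3983, 3912 and 3741 in KO. All KO libraries lay above all WT libraries, and the log2 fold change was 1.29 ± 0.10 (adjusted p = 1.1e-07), a 2.45-fold higher level before any LPS was added. After LPS the counts were 50147, 41274 and 39482 in WTL and 33401, 41067 and 41165 in KOL. The ranges of WTL and KOL overlapped, with a log2 fold change of -0.18 ± 0.10 (adjusted p = 0.15). The rise with LPS was 4.78 ± 0.11 on the log2 scale in WT cells and 3.31 ± 0.11 in CTCF-deficient cells, and the difference between these rises, -1.47 ± 0.14, passed the interaction test (adjusted p = 1e-05). Of all genes, the interaction called 8.7% with a more positive and 8.75% with a more negative log2 response in CTCF-deficient cells, and among the 8 genes 2 were called on each side. The antisense gene Il1bos overlaps Il1b, and since the strand setting of the counting is not stated, their reads cannot be told apart with certainty, but its mean of 272 normalized counts in WTL was small beside the 43634 of Il1b.

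Il1a, which encodes a ligand active also in its precursor form, did not share the unstimulated difference of its neighbour. Counts were 1273, 1151 and 1228 in WT and 1146, 1082 and 1065 in KO. The 2 groups did not overlap, but the log2 fold change of -0.15 ± 0.19 did not pass the test (adjusted p = 0.56), and among the alternatives run it passed in 1, the fit of the 6 unstimulated libraries alone (adjusted p = 0.012). Under LPS the values were 30132, 19266 and 16941 in WTL and 14193, 22331 and 16667 in KOL, so that WTL replicate 1 and KOL replicate 2 stood above the remaining libraries. The log2 rise was 4.18 ± 0.21 in WT and 4.01 ± 0.21 in CTCF-deficient cells. The log2 fold change of KOL against WTL was -0.32 ± 0.18 (adjusted p = 0.18), and it passed the test without KOL replicate 2 (-0.52, adjusted p = 0.022) without WTL replicate 3 (-0.48, adjusted p = 0.046) or with no filter on low counts (-0.30, adjusted p = 0.0038). The TPM of Il1b exceeded that of Il1a 2.16 ± 0.10 times in WT, 5.99 ± 0.21 times in KO, 3.30 ± 0.52 times in WTL and 3.55 ± 0.50 times in KOL. Il1a overlaps Gm14023 on the other strand, and the share of reads common to both was not tested. Gm14023 averaged 13.7 normalized counts in WT, 37.0 in KO, 220 in WTL and 164 in KOL.

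Il1rn, the antagonist gene, was lower in KO than in WT, opposite to Il1b, and rose with LPS in both genotypes. Its counts were 4155, 3849 and 4098 in WT and 3022, 3027 and 3119 in KO. All KO libraries were below all WT libraries, with a log2 fold change of -0.40 ± 0.09 (adjusted p = 0.0027). After LPS the counts were 37491, 32274.5 and 29809 in WTL and 34873, 43078 and 39091 in KOL, with overlapping ranges. The log2 fold change of KOL against WTL, 0.23 ± 0.09, lay at the threshold (adjusted p = 0.051), and it passed without WTL replicate 1 (0.33, adjusted p = 0.0054), without KOL replicate 1 (0.31, adjusted p = 0.018) without any single WT library (0.27 each, adjusted p = 0.037 to 0.04) or with no filter on low counts (0.25, adjusted p = 0.02). The rise with LPS was 3.04 ± 0.10 in WT and 3.67 ± 0.10 in CTCF-deficient cells, and the difference of 0.63 ± 0.13 passed the interaction test (adjusted p = 0.0041). Il1rn lies at chr2:24336853-24351494 on the plus strand, 105.0 Mb from Il1a on the same chromosome.

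The balance of antagonist to agonist transcripts, taken within each library in TPM, differed between WT and the other groups. The ratio of Il1rn to the sum of Il1a and Il1b was 1.32, 1.28 and 1.34 in the WT libraries and 0.507, 0.469 and 0.539 in KO. After LPS the WTL libraries stood at 0.408, 0.448 and 0.419, and the KOL libraries at 0.570, 0.638 and 0.538. Antagonist transcript thus exceeded agonist transcript in each WT library and in no other library. WT stood apart from WTL and from KO, and KOL from WTL, with no overlap, but an exact two-sided permutation test of 3 against 3 libraries cannot go below p = 0.1, which each of these comparisons gave. KO and KOL overlapped (exact permutation p = 0.2).

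**Figure D2:**
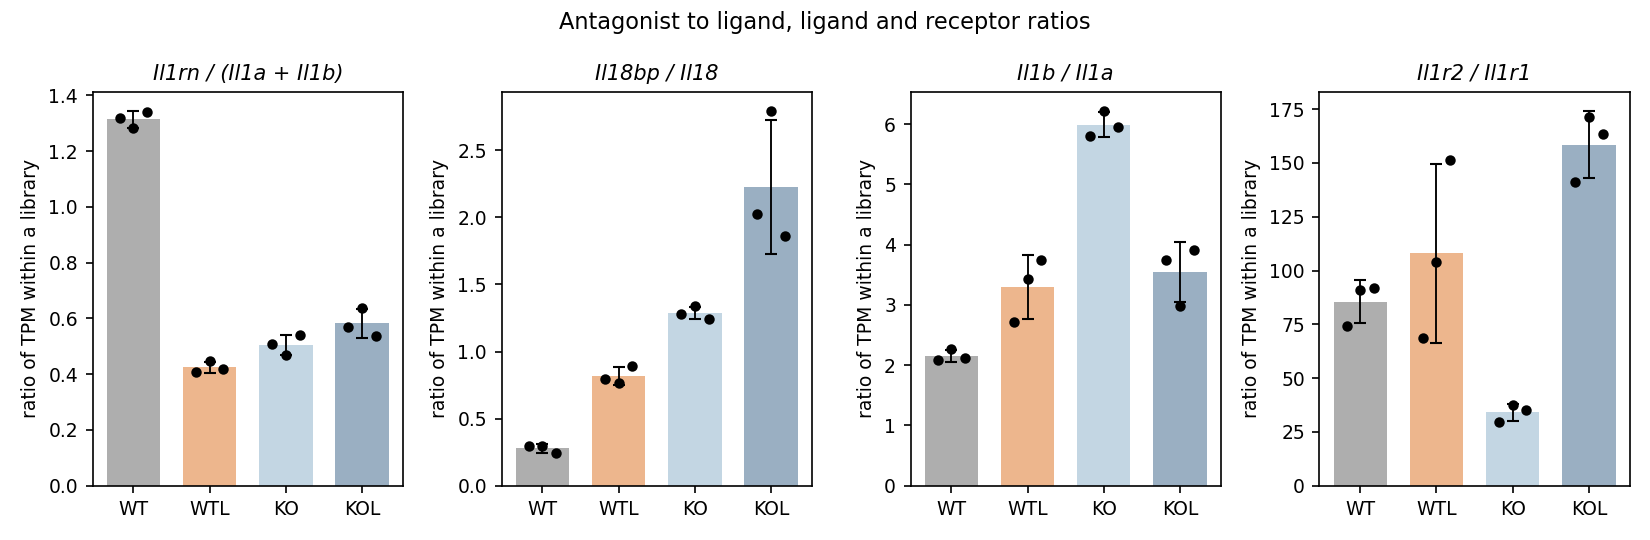
Ratios of TPM values within each library for 4 pairs of transcripts in the 4 groups, where bars are means, error bars the SD and points the 3 libraries, each panel with its own linear axis from 0. The ratio of Il1rn to Il1a plus Il1b is above 1 in WT only, the ratio of Il18bp to Il18 is lowest in WT and highest in KOL, and the ratio of Il1b to Il1a is highest in KO.

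Il18 was lower in CTCF-deficient cells in both states. This ligand, which with IL-12 elicits interferon gamma from T and NK cells, gave 113, 130.0 and 134 normalized counts in WT and 47.6, 34.6 and 40.8 in KO. LPS brought it to 262, 276 and 246 in WTL and to 91.4, 78.4 and 119 in KOL. Every CTCF-deficient library lay below every WT library of the same treatment, and after LPS only KOL replicate 3 reached the range of unstimulated WT. The log2 fold change was -1.61 ± 0.16 (adjusted p = 2e-06) for KO against WT and -1.44 ± 0.14 (adjusted p = 1.9e-06) for KOL against WTL. The rise with LPS was 1.05 ± 0.14 in WT and 1.23 ± 0.17 in CTCF-deficient cells, and the difference of 0.18 ± 0.22 did not pass the test (adjusted p = 0.64). Il18 lies at chr9:50554827-50581840 on the plus strand and overlaps Bco2 and Tex12 on the other strand. Bco2, a carotenoid-cleaving oxygenase, also fell in KOL against WTL (-1.28 ± 0.20, adjusted p = 0.00011), and the share of reads common to the 2 genes was not tested.

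Il18bp, the soluble inhibitor of IL-18, moved the opposite way to Il18 in KO cells. Counts were 78.1, 93.1 and 74.3 in WT and 139, 132 and 119 in KO, without overlap. KO exceeded WT by 0.67 ± 0.10 on the log2 scale (adjusted p = 9.1e-05). After LPS the libraries converged on 475, 477 and 475 in WTL and 459, 479.7 and 477 in KOL, and the log2 difference between these groups was -0.01 ± 0.08 (adjusted p = 0.93). The rise with LPS, 2.54 ± 0.09 in WT, was smaller in CTCF-deficient cells at 1.86 ± 0.09, with a difference of -0.68 ± 0.13 (adjusted p = 0.0025). Of the 9338 genes with a mean of at least 100 normalized counts, Il18bp ranked 3rd by likeness to Il1b over the 12 libraries (Pearson r = 0.996), behind Itgb8 and Gbp3, and Il1b ranked 1st by likeness to Il18bp. These correlations describe 4 groups of 3 libraries and carry no test. Il18bp overlaps Numa1, a mitotic apparatus gene on the other strand with a mean of 1991 normalized counts in WT against 81.8 for Il18bp. They overlap only at their ends, as Numa1 ends at chr7:102014964 and Il18bp spans chr7:102014885-102018690. The share of reads common to both was not tested. Numa1 itself was at 0.02 ± 0.09 between KO and WT (adjusted p = 0.85) and at -0.68 ± 0.09 between WTL and WT (adjusted p = 2.2e-05).

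The ratio of Il18bp to Il18 in TPM rose along with these changes. It was 0.295, 0.297 and 0.242 in WT, 0.796, 0.766 and 0.895 in WTL, 1.28, 1.34 and 1.24 in KO, and 2.02, 2.79 and 1.86 in KOL. Inhibitor transcript was below ligand transcript in all WT and WTL libraries and above it in all CTCF-deficient libraries. No 2 groups compared overlapped, and each of the 4 comparisons gave the smallest p the exact two-sided permutation test can give (0.1).

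Among the receptor genes, Il1r2, the decoy receptor, lost its KO difference under LPS. Its counts were 1001, 1029.8 and 1016 in WT and 391, 419.6 and 386 in KO, so that KO cells held 2.55-fold less (log2 fold change -1.35 ± 0.11, adjusted p = 2.3e-07). After LPS they were 1706, 2100.4 and 2507 in WTL and 2079, 2158 and 2036 in KOL. The KOL libraries lay inside the range of WTL, and the log2 difference was -0.01 ± 0.11 (adjusted p = 0.94). The rise with LPS was 1.05 ± 0.11 in WT and 2.39 ± 0.11 in CTCF-deficient cells, and its difference of 1.34 ± 0.15 passed the interaction test (adjusted p = 5.1e-05). Neutrophils are known to carry much Il1r2, and the summed TPM of 7 neutrophil markers was 369 to 391 in WT, 192 to 225 in KO, 340.1 to 430.1 in WTL and 287 to 331 in KOL. Nearly all of it was S100a8 and S100a9, which myeloid dendritic cells also express. Ltf, Camp, Mpo, Ly6g and Elane were each at or below 6.39 TPM in every library. Mean TPM of all 7 markers was lower in KO than in WT. S100a8 went from 244 to 168, S100a9 from 128 to 37.5, Camp from 3.11 to 0.20 and Ltf from 2.79 to 1.95. Mpo went from 1.56 to 0.38, Ly6g from 0.43 to 0.12 and Elane from 0.33 to 0.04. Under LPS Ly6g was higher in KOL than in WTL (1.26 and 0.21), and the other markers were lower. The part of neutrophils in the Il1r2 difference was not tested.

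Il1r1 was the least expressed member and the only 1 whose rise with LPS did not pass the test in CTCF-deficient cells. Counts were 55.1, 45.3 and 44.9 in WT, 55.6, 44.2 and 47.2 in KO, 99.8, 86.7 and 68.0 in WTL and 59.1, 56.2 and 53.4 in KOL. The WTL libraries lay above those of WT, KO and KOL, which overlapped one another. Fold changes on the log2 scale were 0.80 ± 0.17 (adjusted p = 0.0011) for WTL against WT, 0.20 ± 0.18 (adjusted p = 0.35) for KOL against KO and -0.58 ± 0.17 (adjusted p = 0.014) for KOL against WTL. The difference between the rises, -0.60 ± 0.25, did not pass the interaction test (adjusted p = 0.12), although it did without WTL replicate 3 (-0.74, adjusted p = 0.045). On TPM values, where the median of all genes moved by -0.44 with LPS in WT, the rise of Il1r1 in WT was lost (limma, log2 of TPM + 1, 0.12, adjusted p = 0.36). The KOL against WTL call was lost without WTL replicate 1 (-0.46, adjusted p = 0.058), on TPM (-0.31, adjusted p = 0.06) and in the 6 LPS libraries alone (-0.55, adjusted p = 0.052).

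Il1rap, the co-receptor shared by the receptors for IL-1, IL-33 and IL-36, was lower in CTCF-deficient cells with and without LPS. Its counts were 293, 319.5 and 322 in WT and 190.2, 179.5 and 182 in KO, without overlap. A log2 fold change of -0.76 ± 0.24 passed the test (adjusted p = 0.018), but not without KO replicate 2 (-0.74, adjusted p = 0.054) or without KO replicate 3 (-0.75, adjusted p = 0.053). LPS gave 1180.1, 729 and 634 in WTL and 354, 608 and 357 in KOL. WTL replicate 1 and KOL replicate 2 stood out, as they did for Il1a, yet no KOL library reached a WTL library. The log2 fold change of KOL against WTL was -0.94 ± 0.22 (adjusted p = 0.0027), and leaving out each library in turn gave -1.24 to -0.64. The rise with LPS was 1.44 ± 0.22 in WT and 1.25 ± 0.24 in CTCF-deficient cells, and their difference of -0.18 ± 0.32 did not pass the test (adjusted p = 0.75).

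**Figure D3:**
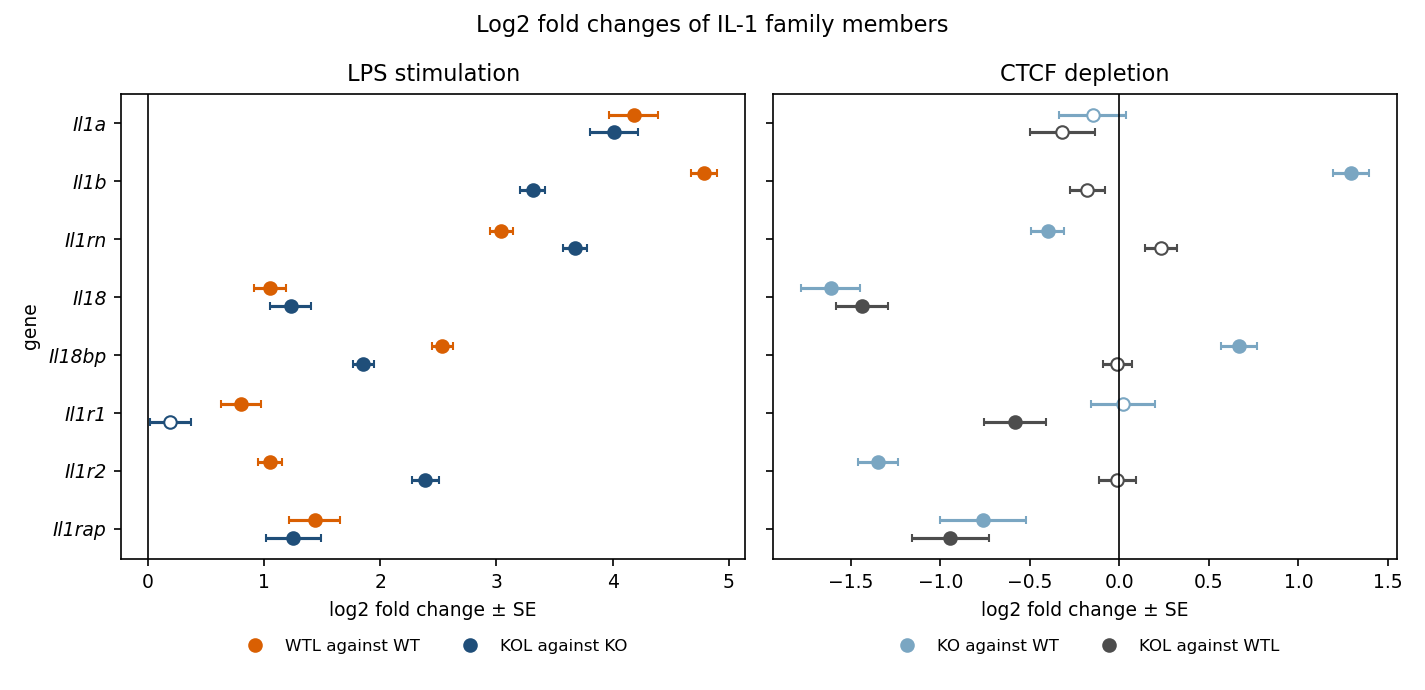
Log2 fold changes with their SE for the 8 genes, with LPS stimulation on the left (WTL against WT and KOL against KO) and CTCF depletion on the right (KO against WT and KOL against WTL). Filled points passed the edgeR test at an adjusted p under 0.05 and open points did not; all filled points on the left are above 0, while on the right Il1b and Il18bp are filled above 0 in KO against WT only.

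Il1r2 and Il1r1 open a receptor gene cluster on chromosome 1 that also holds Il1rl2 (the IL-36 receptor), Il1rl1 (the IL-33 receptor ST2), Il18r1 and Il18rap (both chains of the IL-18 receptor), all on the plus strand. Il1r2 lies at chr1:40074079-40125231, Il1r1 at chr1:40225080-40317257, and the last of them, Il18rap, ends 477.6 kb from the start of Il1r2. The 6 genes did not move alike between KO and WT. Il18r1, Il18rap and Il1rl1 fell by 2.07 ± 0.22, 1.91 ± 0.10 and 1.85 ± 0.16 on the log2 scale, and Il1r2 by 1.35. Il1rl2 fell by 0.41 ± 0.09, and Il1r1, which lies between it and Il1r2, was at 0.02 ± 0.18. Between KOL and WTL, Il1rl2 showed the largest change of the cluster (-1.56 ± 0.10, adjusted p = 2.9e-08), and Il1r2 was at -0.01. KO against WT and KOL against WTL share no library.

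**Figure D4:**
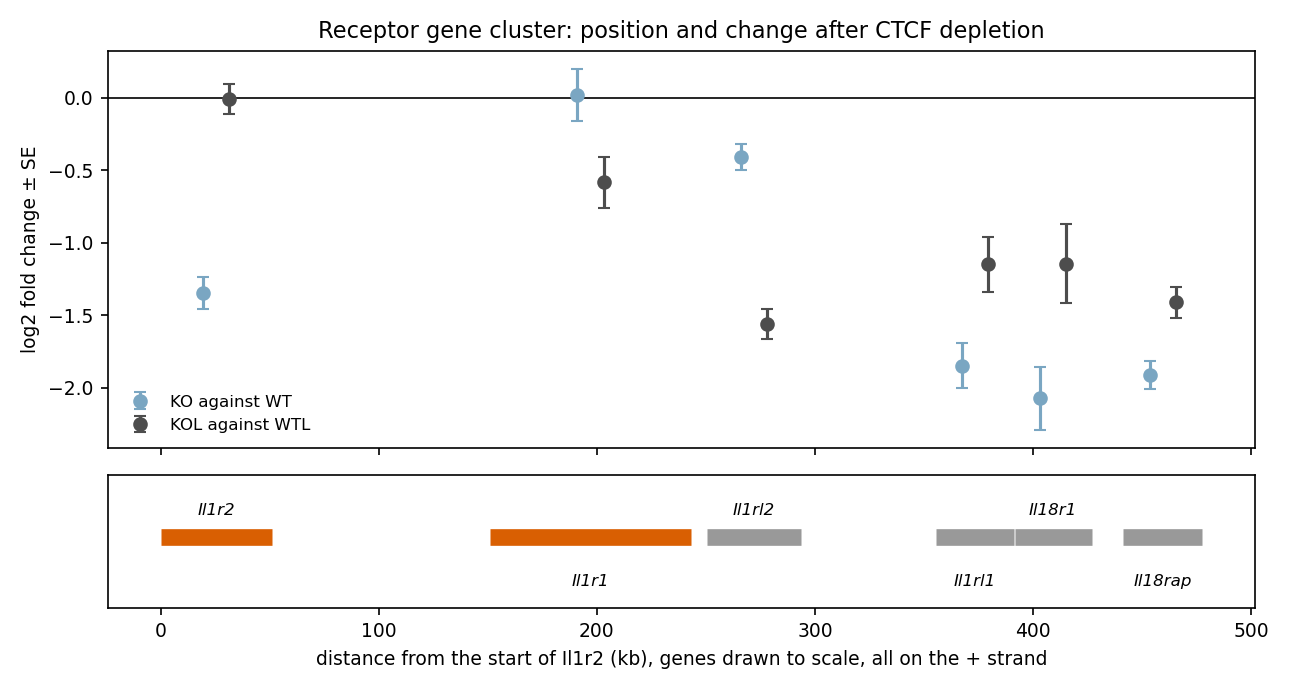
Upper panel, log2 fold change with its SE for 6 receptor genes after CTCF depletion without and with LPS, each point drawn near the middle of its gene. Lower panel, the genes to scale by their distance in kb from the start of Il1r2, with Il1r2 and Il1r1 in orange; Il1rl1, Il18r1 and Il18rap at the far end are below -1 in both comparisons, whereas Il1r2 is below -1 only without LPS and Il1r1 is near 0 without LPS.

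Of 42 further genes of the pathway, in 4 lists, 37 were tested. Between KO and WT 4 were higher and 18 lower (median log2 fold change -0.19, all genes -0.01), and between KOL and WTL 1 was higher and 24 lower (median -0.39, all genes -0.03). Over all genes tested, 22.2% were higher and 22.4% lower in the first comparison, and 21.4% higher and 23.3% lower in the second. The 1 gene higher under LPS was Capn1, a calpain subunit, at 0.62 ± 0.08 (adjusted p = 1.2e-05), while its relative Capn2 fell by 0.35 ± 0.08. LPS gave 21 higher and 10 lower in WT and 19 higher and 10 lower in CTCF-deficient cells, beside 30.0% and 30.2% of all genes in WT and 33.6% and 33.9% in CTCF-deficient cells. On TPM these became 12 higher and 15 lower in WT, and 11 higher and 16 lower in CTCF-deficient cells, so the balance of directions under LPS depends on the scaling.

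Of the other ligands, Il33, Il36a and Il36g were tested, and all 3 rose with LPS in WT. Il33, the alarmin that binds ST2, had 8, 6 and 5 counts in WT and 0, 0 and 1 in KO, and Il36a had 5, 6 and 8 in WT and 0, 1 and 0 in KO. These unstimulated levels are too near 0 for a fold to be read. Under LPS Il33 reached 76, 80 and 86 counts in WTL and 65, 109 and 83 in KOL, with overlapping ranges, and Il36a reached 180, 167 and 188 in WTL against 90, 67 and 110 in KOL (log2 fold change -1.08 ± 0.18, adjusted p = 0.00018). Il36g, an agonist of the IL-36 receptor, was well expressed, with 709.6 to 816 normalized counts in WT, 2006 to 2504 in WTL, 912 to 1026 in KO and 1702 to 2015 in KOL. It was higher in KO than in WT (0.38 ± 0.10, adjusted p = 0.0065) and lower in KOL than in WTL (-0.29 ± 0.10, adjusted p = 0.024), but the first call was lost on TPM and without WT replicate 2 or 3, and the second without any of 5 single libraries (WT replicates 2 and 3, WTL replicate 1, KOL replicates 1 and 2). Il36b, Il1f10, Il1rapl1 and Il1rapl2 had 0 counts in every library and Il36rn at most 2.

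Most of the other receptors were lower with LPS and with CTCF depletion. All 5 tested were lower in WTL than in WT, from -0.41 (Il1rl2) to -1.64 (Il18r1). Of these, 4 were lower in KO than in WT and in KOL than in WTL. Over all genes, 30.2% were lower in WTL than in WT, 22.4% in KO than in WT and 23.3% in KOL than in WTL. None of the 5 receptors was higher in edgeR at an adjusted p under 0.05 in these comparisons, or by DESeq2 or limma. At an unadjusted p under 0.05 edgeR had 1 higher, in KOL against WTL. This was Sigirr, an inhibitory receptor of the family, whose log2 fold change there was 0.49 ± 0.21 (adjusted p = 0.069), and which passed without KOL replicate 3 (0.68, adjusted p = 0.013). Il18rap normalized counts were 513, 486 and 474 in WT, 266, 257 and 271 in WTL, 126, 135 and 131 in KO and 109.7, 107.6 and 81.2 in KOL. Each group was clear of the next, so that the receptor chain and its ligand Il18 were both low in CTCF-deficient cells.

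Among 14 genes of precursor processing and release, 10 rose and 2 fell with LPS in WT (all genes, 30.0% and 30.2%). On TPM these became 5 and 5. Between KO and WT 1 was higher and 4 were lower (all genes, 22.2% and 22.4%). Between KOL and WTL 1 was higher and 7 were lower (all genes, 21.4% and 23.3%). Nlrp3, the inflammasome sensor, had 859.8, 942 and 1010.35 normalized counts in WT and 398, 397 and 379 in KO, and 4498, 3887 and 3465 in WTL against 2321, 2936 and 2329 in KOL. It was lower in both comparisons (-1.26 ± 0.12, adjusted p = 6.6e-07, and -0.64 ± 0.11, adjusted p = 0.00023). Casp4, the sensor of intracellular LPS, was lower by 1.31 ± 0.12 and 0.98 ± 0.11, and Gsdmd, the pore-forming effector, by 0.54 ± 0.08 in each. Casp1, whose product cleaves the precursors of IL-1 beta and IL-18, passed the test in neither (0.10 ± 0.11 and -0.17 ± 0.11). Mefv, which encodes pyrin, differed between KOL and WTL (-1.20 ± 0.09, adjusted p = 1.2e-07) and was at 0.01 ± 0.10 between KO and WT. The P2rx7 channel and Ninj1, both linked to release, were likewise lower in KOL than in WTL (-0.72 ± 0.11 and -0.71 ± 0.09) and did not pass the test between KO and WT, although Ninj1 did on TPM (-0.25, adjusted p = 0.021), in the 6 unstimulated libraries alone (-0.17, adjusted p = 0.0097) and without WT replicate 1 (-0.26, adjusted p = 0.048).

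In the signalling list of 15 genes, 8 were lower and 2 higher in KO than in WT, beside 22.4% and 22.2% of all genes. Between KOL and WTL 11 were lower, beside 23.3% of all genes lower and 21.4% higher. In that comparison 0 were higher in edgeR at an adjusted or an unadjusted p under 0.05, in DESeq2 and in limma. Myd88, the adaptor of IL-1 and Toll-like receptors, had 1614, 1657 and 1635 normalized counts in WT, 1088, 1098 and 1104 in KO, 5022, 5382 and 5239.7 in WTL and 2977, 3189 and 2987 in KOL. All CTCF-deficient libraries were below the matched WT libraries (-0.58 ± 0.06, adjusted p = 2.9e-06, and -0.77 ± 0.06, adjusted p = 1.3e-07). Tab1, a partner of the kinase TAK1, fell most, by 2.42 ± 0.18 and 1.47 ± 0.20. Irak2 and Irak3, a positive and a negative regulator of the pathway, fell by 0.79 ± 0.07 and 0.81 ± 0.10 in KOL against WTL. The 2 genes higher in KO, Peli1 and Irak4, were so by 0.24 and 0.19 and lost their calls in DESeq2, on TPM, and without WT replicate 2, WT replicate 3 or any single KO library.

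**Figure D5:**
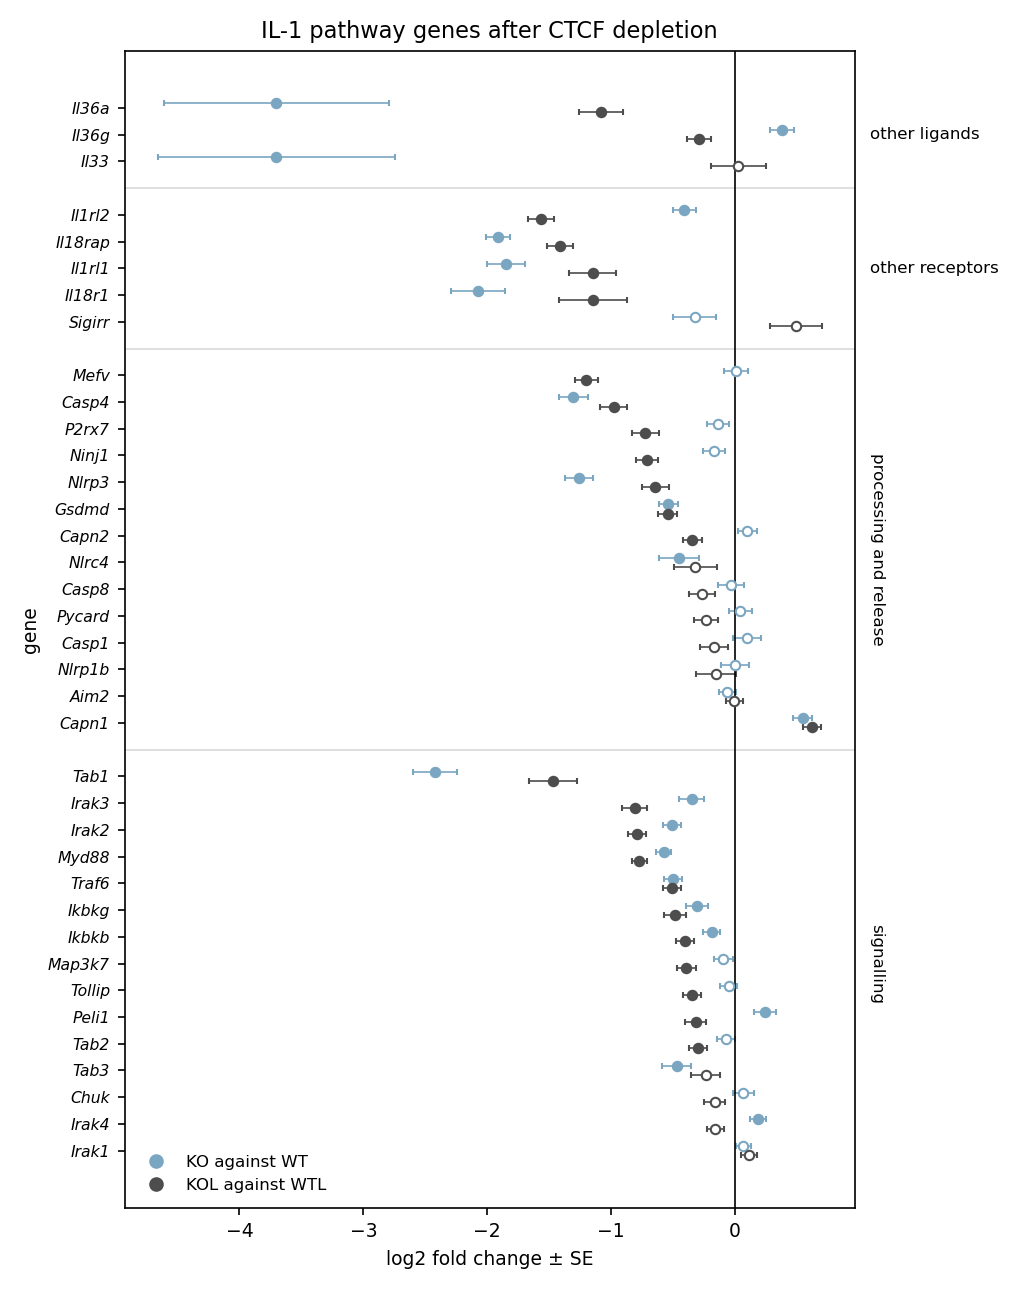
Log2 fold changes with their SE for the 37 tested pathway genes in 4 lists, KO against WT in light blue and KOL against WTL in dark grey, with filled points for an adjusted p under 0.05. Most filled points are below 0 in both comparisons, Capn1 is above 0 in both, and the wide bars of Il33 and Il36a belong to unstimulated counts of at most 8.

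Protein-coding genes next to the members were taken from the 3 nearest on each side of each member. Apart from members they were 36 genes, of which 23 were tested; 7 were higher and 8 lower in KO than in WT, and 9 were higher and 8 lower in KOL than in WTL. Over all genes these shares were 22.2% and 22.4%, and 21.4% and 23.3%. Il36a, Il1rl2, Il1rl1 and Il18r1, lower in both comparisons, are counted here and among the pathway genes. Next to Il1a and Il1b, Sirpa (the phagocytic checkpoint receptor) was higher by 0.71 ± 0.07 in KO and 0.88 ± 0.07 in KOL, Slc20a1 by 0.27 ± 0.06 and 0.67 ± 0.06 (the first call lost on TPM), and Ckap2l, of the mitotic spindle, was lower by 0.74 ± 0.11 and 0.84 ± 0.12. Next to Il1rn, Psd4 was higher (0.74 ± 0.09 and 0.81 ± 0.09) and Cacna1b, a neuronal calcium channel gene, lower (-1.50 ± 0.21 and -1.84 ± 0.18), although the first call of Cacna1b was lost on TPM. Next to Il18, which fell, Pts, Sdhd and Timm8b were higher in KO by 0.84 ± 0.09, 0.42 ± 0.09 and 0.40 ± 0.09. Bco2, which overlaps Il18, was lower in KOL (-1.28 ± 0.20) and did not pass the test in KO. Next to Il18bp, Lrrc51 was higher in KO (0.81 ± 0.26), and Rnf121 (0.34 ± 0.10) and Xntrpc (2.07 ± 0.72) in KOL. These calls were lost in DESeq2 for Lrrc51, on TPM for Rnf121 and with the replicate block for Xntrpc. Cldn1, a tight junction gene and the only tested neighbour of Il1rap, fell by 2.64 ± 0.10 in KO (adjusted p = 6.3e-11) and by 2.10 ± 0.10 in KOL (adjusted p = 9e-10). Neighbours thus moved in either direction beside members that rose, fell or did not pass the test.

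By correlation of log2 normalized counts over the 12 libraries, the gene most like each member was Ifi207 for Il1a (r = 0.999), Itgb8 for Il1b (0.997), Usp25 for Il1rn (0.998), Ifi27l2a for Il18 (0.993), Slc16a10 for Il1r1 (0.954), Il23a for Il1r2 (0.989) and Adgb for Il1rap (0.992). With 4 groups the correlation reflects mainly the group means. Il23a, the cytokine subunit most like Il1r2, averaged 128 normalized counts in WT, 13.9 in KO, 571 in WTL and 522 in KOL, the same order of groups as Il1r2.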

How the data were processed

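RNA of 12 libraries in 4 groups of 3 was sequenced and tabulated per gene. Per the labels and the submitters' processing notes, the authors aligned reads with STAR and quantified them with RSEM, with mm10 and GENCODE gene IDs. The notes give STAR 2.5.1, and the study's reporting summary gives a later STAR version. The deposited tables give the expected count, RSEM's estimate of the reads of a gene, and TPM, the authors' abundance per transcript length. The labels name rRNA depletion and the study's methods a stranded poly(A) kit, and the strand setting of the counting is not stated.

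Expected counts were rounded and tested with the edgeR 4.0.16 quasi-likelihood test (R 4.3.3, TMM normalization, filterByExpr) in a single fit of all 12 libraries, without a replicate block, at an adjusted p under 0.05 (Benjamini-Hochberg over 14008 genes). The interaction tested the response to LPS in KO minus that in WT. Normalized counts are counts over the effective size of the library, times the mean effective size of the 12. TMM factors were 0.817 to 0.885 in LPS libraries and 1.12 to 1.22 in unstimulated ones. Alternatives were DESeq2 1.42.0, its size factors in edgeR, other filters, a replicate block, the 6 libraries of a comparison alone, limma 3.58.1 on log2 TPM with a pseudocount of 1 or 0.1, the study's fold cutoffs, and leaving out each library. The fit was also run on simulated data with 200 genes changed in KO alone and a single spread per gene for all groups. The simulation did not copy the wider spread of the LPS libraries or any response to LPS.

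The members and lists were chosen with earlier results of these data known. Genes named were the members, Ctcf, the 3 called genes of each pathway list with the largest change in each direction, called genomic neighbours, and the 3 genes most correlated with each member (mean of at least 100 normalized counts). Neighbours were named for the CTCF depletion comparisons alone, a restriction made after their values were seen, as was the naming of any other gene. Same-numbered replicates had correlated deviations of -0.325 to 0.126 and were not taken as pairs. Positions are from GENCODE M21 and promoter windows from RefSeq, both on mm10 (GRCm38).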

Additional observations from a re-analysis of the deposited data

Results flagged for a closer look

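The response to LPS differed between CTCF-deficient and WT cells, by the edgeR interaction test at an adjusted p under 0.05, for 4 of the 8 members. Over all genes tested, 8.7% were called with a positive and 8.75% with a negative value. The differences in log2 response, KO minus WT, were -1.47 for Il1b, -0.68 for Il18bp, 0.63 for Il1rn and 1.34 for Il1r2. These 4 calls held in all 19 alternatives. For each of them the WTL and KOL libraries overlapped while the WT and KO libraries did not.

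The same test passed for 13 of the 37 pathway genes tested, 9 with a negative and 4 with a positive value, beside 8.75% and 8.7% of all genes. Of the negative ones, Mefv (-1.20), Il36g (-0.67), Peli1 (-0.56), Ninj1 (-0.54), Irak3 (-0.46) and Capn2 (-0.45) rose with LPS in WT, and their response was smaller in CTCF-deficient cells. Il1rl2 (-1.15), P2rx7 (-0.59) and Irak4 (-0.34) fell with LPS in WT and fell further in CTCF-deficient cells. Of the positive ones, Nlrp3 (0.62) rose more in CTCF-deficient cells. Il18rap (0.50) fell less, and Tab1 (0.96), which fell by 0.93 in WT, was at 0.02 there. The value of Il33 was 3.73, which rests on at most 1 count in any KO library and depends on the prior count of the fit.

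Several of these calls were lost under some of the 19 alternatives: Irak3 under 14, Irak4 under 9, Il18rap under 6, Tab1 under 5, Capn2 under 4, P2rx7 under 3, and Ninj1 and Il33 under 1 each. Those of Mefv, Il1rl2, Il36g, Peli1 and Nlrp3 were lost under none of them. Libraries whose omission lost a call were WTL replicate 2, KO replicates 1 and 3 and KOL replicate 1 for Il18rap, KO replicates 1 and 2 and KOL replicates 1 and 3 for Tab1, WT replicates 1 and 2 for Capn2, and WT replicate 1 for P2rx7 and Ninj1. For Irak4 they were all WT replicates, KO replicates 2 and 3 and KOL replicate 3, and for Irak3 all libraries except WTL replicate 3 and KOL replicate 2.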

How the results depend on the processing

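Of 824 values of members under the alternatives, 803 kept their call, 10 lost it and 11 gained one. The sign turned in 22, none of them called in either fit, among them Il1r1 in KOL against KO (0.20, and -0.26 at its lowest). Of 3635 values of other genes, 174 lost and 44 gained a call. The number of members higher in KOL than in WTL went from 0 to 1 (Il1rn) without a filter on low counts, and was 0 to 1 when each library was left out. Pathway genes higher in WTL than in WT went from 21 to 12 on TPM with either pseudocount and to 11 with the study's fold cutoff, and those lower from 10 to 5 with that cutoff. In KO against WT the number higher went from 4 to 2 in DESeq2, 1 on TPM and 2 with the cutoff, and was 1 to 4 with libraries left out. In KOL against WTL the number lower went from 24 to 14 with the cutoff, and the number higher was 1 to 2 with libraries left out. In KOL against KO the number higher went from 19 to 11 on TPM and 8 with the cutoff, and the number lower from 10 to 16 and 3. For the interaction the number lower went from 9 to 5 on TPM and was 4 to 11 with libraries left out, and the number higher was 2 to 7. Apart from the cutoff, which by construction removes smaller changes, the cause was not tested.

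On TPM the median of all genes moved to -0.44 for WTL against WT and -0.38 for KOL against KO. The split of higher and lower calls went from 4209 and 4224 to 1710 and 7544 in the first, and from 4704 and 4752 to 2245 and 6935 in the second. With the 6 libraries of a comparison alone, KO against WT went from 3110 higher and 3131 lower to 4096 and 4176 of 13334. KOL against WTL went from 2991 higher and 3266 lower to 2351 and 2124 of 13060. With the replicate number as a block all member counts were the same, with 17 pathway genes lower in KO than in WT and 8 lower for the interaction. The replicate numbers were not taken as pairs, and the deviations of same-numbered libraries cannot show whether these shared a mouse or a culture. The call of Irak3 for the interaction was lost with the block (adjusted p = 0.068), as was that of Ikbkb in KO against WT (adjusted p = 0.06). The largest SEs between groups were those of Il1rap (0.217 to 0.238) and Il1a (0.183 to 0.209), whose LPS libraries spread widely, above those of Il1r1 and Il18, which had the fewest reads of the receptors and ligands.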
